A study of Mus musculus with 23 samples.

Results

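Neurotrophins are secreted growth factors of neurons, and the 8 genes described here encode 2 of them, some of their receptors, and 2 further secreted factors. They are Bdnf and Ntf3 (brain-derived neurotrophic factor and neurotrophin 3), Ntrk2, Ntrk3, Ngfr and Sort1 (the receptors TrkB, TrkC, p75 and sortilin), Vgf and Gdnf. They were taken by name from a table of 45706 gene rows. Of the 8 genes, 7 passed the filter on low counts and were tested among 15828 genes. Gdnf did not pass this filter and is given mainly as counts.

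Neurotrophins are made as precursors, packed with the help of sortilin, and released in part when neurons fire. The mature forms bind Trk receptor kinases, which switch on the MAP kinase, PI3 kinase and phospholipase C pathways, while the precursors bind p75 together with sortilin. In the hippocampus Bdnf is an activity-regulated gene of excitatory neurons with several promoters, and BDNF acting on TrkB supports long-term potentiation and memory. Vgf encodes a precursor of secreted granule peptides and is itself induced by BDNF, and GDNF belongs to another factor family that signals through Gfra co-receptors and Ret.

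Hippocampal RNA of female mice was sequenced. The mice were wild type (Ins2+/+, WT, 12 libraries) or lacked Ins2 (Ins2-/-, KO, 11 libraries), a gene for one of the insulins of the mouse. The series title concerns brain insulin production, learning and memory. Age, strain, litter and batch are not given in the sources used here, no treatment is labelled, and the deletion is not limited to a cell type by the labels. Nothing in the labels says that the libraries came from separate animals, so p-values measure the spread between these libraries. In bulk tissue, fewer cells of a type and less RNA per cell cannot be told apart.

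Library totals ranged from 13792274 to 22953261 counts. Ins2 had 0 counts in all 11 KO libraries, and 26 counts in total in WT, where 5 of 12 libraries were also at 0. The marker lists of dentate gyrus, CA1 and CA3 neurons had mean levels of 5.05 to 6.29 log2 CPM (counts scaled to a common library total) in 22 libraries. KO library 8 stood apart: it had 2.68, 3.79 and 3.83 on these lists, and 5.60 on a list of 12 hypothalamic genes that was at -2.24 to -1.18 elsewhere. Its Pmch (the melanin-concentrating hormone precursor) was at 609 CPM and its Avp (vasopressin) at 316 CPM. WT library 15 held RNA of cholinergic neuron genes, described with Ngfr below, and WT libraries 14 and 17 and KO libraries 2, 6 and 12 were rich in choroid plexus genes. Results are therefore given with and without KO library 8.

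No member passed the test of KO against WT (0 of 7 tested), with or without KO library 8. By edgeR's quasi-likelihood test with Benjamini-Hochberg adjustment, 2 of 15828 genes, 0.0126%, were called with all libraries, and 2 of 15870, also 0.0126%, without KO library 8. At an unadjusted p under 0.05, 0 members passed in either fit, against 5.74% and 4.11% of all tested genes. DESeq2, run without that filter, also placed 0 of the 8 members under that limit (4.25% of all genes). Limma voom with quality weights placed 2 of 7 there, Ntrk3 and Sort1, with adjusted p of 0.277 and 0.239, in a fit where 17.4% of all genes were under the limit. Of the 7 tested members 5 had lower fitted values in KO in both fits, beside 49.0% and 48.4% of all genes. Their median log2 fold change was -0.18 with KO library 8 and -0.053 without it, beside 0.0031 and 0.0032 over all genes. Without WT library 15 and KO library 8, 3 members were lower and 4 higher, with a median of 0.0023, as Ntf3 (0.0023) and Ngfr (0.046) changed sign. Bdnf and Sort1 were further below 0 in that fit than without KO library 8 alone, and 2 of 7 members, these 2, had an unadjusted p under 0.05, against 6.77% of all genes.

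**Figure D1:**
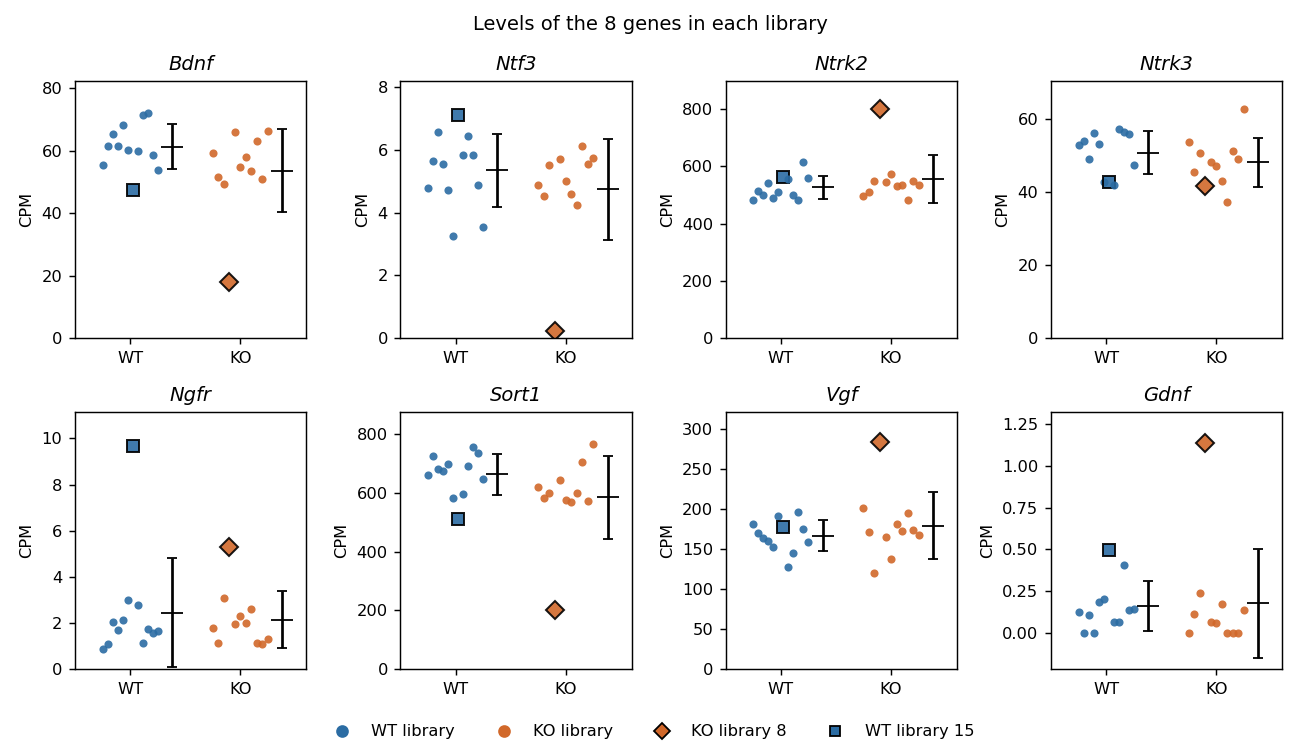
Level of each of the 8 genes (y axis, CPM) in every library of WT and KO (x axis), with 1 point per library. Horizontal and vertical black lines give the mean ± SD (WT, n = 12; KO, n = 11). KO library 8 (diamond) was the lowest library for Bdnf, Ntf3 and Sort1 and the highest for Ntrk2, Vgf and Gdnf, and WT library 15 (square) was the highest for Ngfr.

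Bdnf, the main activity-dependent neurotrophin of the hippocampus (chr2:109674700-109727007, plus strand), had 47.6, 60.9 and 72.2 CPM as lowest, median and highest WT values. The KO values were 18.1, 54.9 and 66.2 CPM. The lowest KO value was that of KO library 8, and without it the KO libraries began at 49.4 CPM and lay within the WT range. WT libraries averaged 61.3 ± 7.27 CPM (SD, n = 12), and KO libraries 53.7 ± 13.2 CPM (SD, n = 11), or 57.2 ± 6.23 CPM without library 8 (SD, n = 10). The log2 fold change was -0.19 (SE 0.133) with all libraries, with an edgeR adjusted p of 0.781. It was -0.094 (SE 0.0673) without KO library 8, with an edgeR adjusted p of 0.967, so the estimate moved to a value less than 0.5 times as large when 1 library was left out. With WT library 15 left out as well, it was -0.13, with an unadjusted p of 0.0487 and an edgeR adjusted p of 0.735.

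Bdnf starts transcription at several first exons, and gene counts do not show which of them was used. RefSeq (GRCm38.p6) gave 7 Bdnf start sites a promoter window. The 250 bases before each start were searched on both strands for TGACG (or its complement CGTCA), the core of the element bound by the activity-regulated factor CREB, and for the full palindrome TGACGTCA, which contains both. The core was present in 1 of 7 Bdnf windows and in the single Fos window, where it occurred at 2 places. Of 32851 windows searched in all, 17.8% held the core and 1.55% the full palindrome, which was in none of the Bdnf or Fos windows. The stretches are shown because Bdnf is compared with Fos below, and the capitals mark the core. The Bdnf core lies 30 bases before its start site (chr2:109692381-109692425, plus strand), and the Fos cores lie 124 and 61 bases before theirs (chr12:85473741-85473785 and chr12:85473804-85473848, plus strand). A match is a description of letters and not a measured binding site.
Bdnf: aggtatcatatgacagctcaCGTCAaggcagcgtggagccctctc
Fos, farther core: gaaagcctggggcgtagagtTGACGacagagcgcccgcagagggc
Fos, nearer core: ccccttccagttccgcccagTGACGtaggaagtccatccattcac
Of the 8 members and the 3 comparison genes Fos, Arc and Prox1, 7 had a window. The core was absent from the windows of Ntf3, Ntrk2, Ngfr and Prox1, and present in 1 of 2 windows of Gdnf. No window was used for Ntrk3, Sort1, Vgf and Arc.

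Ntf3, the TrkC ligand neurotrophin 3 (chr6:126101412-126166910, minus strand), is made by dentate granule cells in the adult hippocampus. Its lowest, median and highest levels were 3.25, 5.60 and 7.10 CPM in WT and 0.24, 4.99 and 6.10 CPM in KO. The KO minimum was KO library 8, where 4 counts were found, and the next KO library had 4.23 CPM, above the WT minimum. The WT maximum was WT library 15. Its log2 fold change was -0.18 (SE 0.249) with an edgeR adjusted p of 0.870, and -0.042 (SE 0.116) without KO library 8. It was 0.0023 with both of these libraries left out.

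Ntrk2 (chr13:58806569-59133970, plus strand) encodes TrkB, the BDNF receptor, which neurons make in a full-length kinase form and astrocytes mainly in a truncated form. Gene counts add these forms together. WT levels were 483, 513 and 617 CPM (lowest, median, highest) and KO levels 484, 536 and 800 CPM. KO library 8 gave the highest value, and the other 10 KO libraries reached 575 CPM, inside the WT range. In the edgeR fit its log2 fold change was 0.08 (SE 0.067, adjusted p = 0.801), and 0.019 (SE 0.044) without KO library 8. With or without it, means differed by less than the spread between libraries (527 ± 41.0 CPM in WT, n = 12, and 532 ± 26.7 CPM in KO without library 8, SD, n = 10).

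Ntrk3, the gene of the neurotrophin 3 receptor TrkC (chr7:78175959-78738012, minus strand), was the member least touched by KO library 8. It had 41.9, 53.1 and 57.2 CPM in WT and 37.3, 48.1 and 62.7 CPM in KO, and the KO library 8 value of 41.6 CPM lay within the range of the other 22 libraries. Both the lowest and the highest of all libraries were KO. The log2 fold change was -0.078 (SE 0.0745, edgeR adjusted p = 0.811) and -0.053 (SE 0.0732) without KO library 8.

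Sort1 (chr3:108284082-108361511, plus strand) encodes sortilin, which sorts proBDNF and forms the death-signalling receptor with p75. WT libraries had 510, 679 and 756 CPM and KO libraries 200.3, 601 and 768 CPM. KO library 8 was again the minimum, and WT library 15 was the lowest WT library. Sort1 averaged 664 ± 70.7 CPM in the 12 WT libraries, against 624 ± 65.3 CPM in the 10 KO libraries without library 8 (SD). Its log2 fold change was -0.18 (SE 0.131, edgeR adjusted p = 0.783), and -0.083 (SE 0.0635) without KO library 8. Without WT library 15 as well it was -0.11, with an unadjusted p of 0.0481 and an edgeR adjusted p of 0.733. Sort1 shares 338 exonic bases with the antisense gene Gm12523, and Bdnf shares 896 with the antisense gene Gm45346. Whether the counting used strand is not given in the sources used here, so reads in these stretches cannot be assigned with certainty.

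Ngfr encodes p75, the low-affinity receptor of all neurotrophins (chr11:95568818-95587735, minus strand). In the adult forebrain it is known from the cholinergic neurons of the basal forebrain, which project to the hippocampus. Its levels were low, at 0.87, 1.72 and 9.66 CPM in WT and 1.09, 1.95 and 5.28 CPM in KO. The highest values were those of WT library 15 (215 counts) and KO library 8 (88 counts), and the third highest, KO library 6, had 3.08 CPM. The direction of the genotype estimate turned when WT library 15 was left out, but not when only KO library 8 was. The log2 fold change was -0.20 (SE 0.359, edgeR adjusted p = 0.899), -0.42 (SE 0.345) without KO library 8, 0.26 without WT library 15 and 0.046 without both.

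The libraries with high Ngfr also held RNA of cholinergic neurons. Chat, the acetylcholine-synthesising enzyme, had 139 counts in WT library 15 and 20 in KO library 8, and 0 to 3 in the other 21. Lhx8, a transcription factor of basal forebrain cholinergic neurons, had 125 and 14 counts there and 0 to 1 elsewhere. The mean of 6 cholinergic genes was 2.58 log2 CPM in WT library 15, 1.14 in KO library 8 and -2.66 to -1.84 in the others. Among these genes Isl1 was the highest in KO library 8, at 24.5 CPM against 6.11 CPM in WT library 15. The rest of the list was at 0.48 to 3.42 CPM in KO library 8. The part of this RNA in the Ngfr values was not tested.

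Below these libraries, Ngfr was highest in KO library 6 (3.08 CPM), WT library 14 (2.98 CPM) and WT library 17 (2.79 CPM), each rich in choroid plexus genes. The other choroid plexus rich libraries, KO library 12 and KO library 2, had 2.32 and 1.77 CPM. Libraries not rich in these genes lay among them, such as KO library 16 at 2.62 CPM and WT library 11 at 2.12 CPM. Over the 22 libraries without KO library 8, Spearman's rho of Ngfr was 0.640 with 6 fibroblast genes of meninges and vessel walls and 0.715 with 10 choroid plexus genes. Pearson's r was lower, at 0.436 and 0.444, but 0.676 and 0.674 with WT library 15 left out as well. These values describe libraries whose RNA comes from mixtures of tissue, and no p is attached to them.

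**Figure D2:**
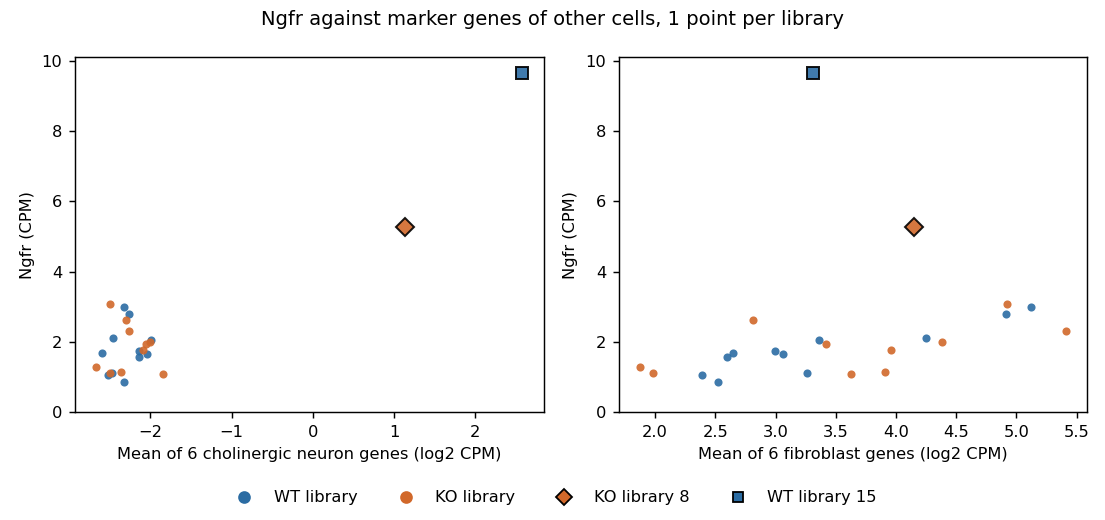
Ngfr level (y axis, CPM) in each library against the mean log2 CPM of 6 cholinergic neuron genes (left) and of 6 fibroblast genes (right), with 1 point per library (WT, n = 12; KO, n = 11). In the left panel WT library 15 (9.66 CPM) and KO library 8 (5.28 CPM) lie apart from the other 21 libraries, whose cholinergic means were -2.66 to -1.84. In the right panel the remaining libraries spread from 0.87 to 3.08 CPM.

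Vgf, the precursor of granule peptides (chr5:137026392-137033351, plus strand), had 128, 167 and 196 CPM in WT and 120, 173 and 284 CPM in KO. KO library 8 was the highest, and the other 10 KO libraries ended at 202 CPM, near the WT maximum. WT libraries averaged 167 ± 19.3 CPM (SD, n = 12), and the 10 KO libraries without library 8 averaged 169 ± 24.4 CPM (SD). The log2 fold change was 0.10 (SE 0.101, edgeR adjusted p = 0.814) with all libraries and 0.022 (SE 0.0776) without KO library 8. The lowest 3 libraries of all, KO library 6, WT library 17 and KO library 12, were 3 of the 5 rich in choroid plexus genes. The other 2 of these were among the highest, KO library 2 at 202 CPM and WT library 14 at 191 CPM.

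Gdnf, the glial cell line-derived factor that binds Gfra1 and Ret (chr15:7810846-7837575, plus strand), was near the detection limit. WT libraries held 34 counts in total, 0 to 11 each, and 2 of 12 were at 0. KO libraries held 33 counts, of which 19 were in KO library 8, and 4 of 11 were at 0. A count of 0 allows up to 3 counts, which is 0.143 to 0.201 CPM in the 6 libraries at 0 and covers counting error only. WT library 15 held the 11 counts. Without the filter on low counts the edgeR log2 fold change was 0.064 (SE 0.677, adjusted p = 0.995), and DESeq2 gave 0.099 (SE 0.772, adjusted p = 0.999). These fits include KO library 8. The mean was 0.159 ± 0.150 CPM over the 12 WT libraries and 0.174 ± 0.330 CPM over the 11 KO libraries, but 0.078 ± 0.084 CPM over the 10 without library 8 (SD), so the direction turned with that library, and no test was run without it. A difference between genotypes was not detectable at this depth.

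**Figure D3:**
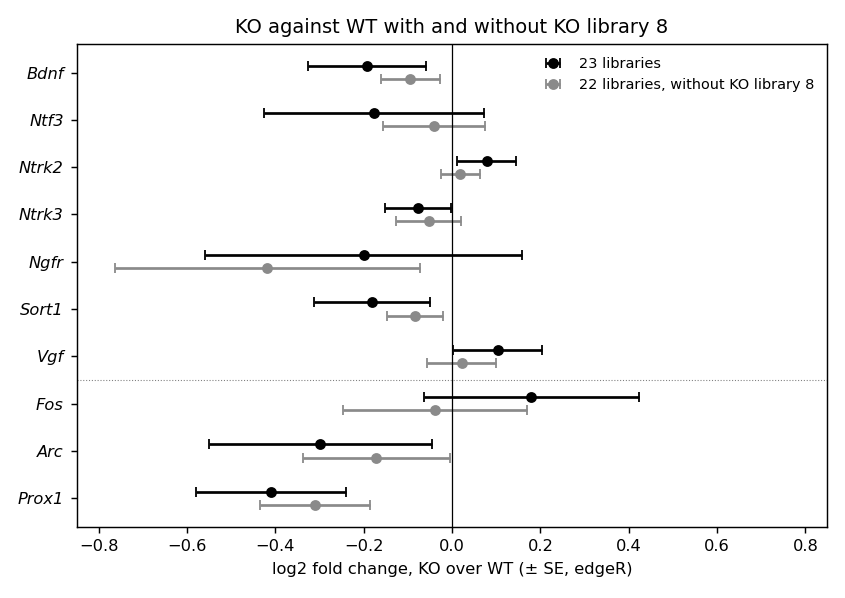
Log2 fold change of KO over WT (x axis, edgeR estimate ± SE) for the 7 tested members and for Fos, Arc and Prox1 below the dotted line. Black points use 23 libraries and grey points 22, without KO library 8. The grey point lies nearer to 0 than the black point for every gene except Ngfr, and Fos changes sign.

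KO library 8 lay outside the range of the other libraries in 6 of the 8 members, all but Ntrk3 and Ngfr. Against the median of the other 22, Bdnf was 3.30-fold lower (18.1 against 59.5 CPM), Sort1 3.22-fold lower and Ntf3 23-fold lower (0.24 against 5.53 CPM). Ntrk2 was 1.5 times that median, Vgf 1.66 times and Ngfr 3.0 times. Fos, an immediate early gene, was at its highest there (75.4 against a median of 24.1 CPM), while Arc, another immediate early gene made by excitatory forebrain neurons, was at its lowest (17.3 against 165 CPM, 9.55-fold lower). Prox1, the transcription factor that marks dentate granule cells, was 3.66-fold lower. Over the other 22 libraries Fos and Arc had a Pearson's r of 0.724, and over all 23 it was -0.210.

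Levels of different genes were compared as CPM per kilobase of exon (union of all annotated exons), as mean ± SD over the 22 libraries. Sort1 was highest at 85.3 ± 9.20 and was followed by Vgf at 56.4 ± 7.15. Their ranges overlapped, although Sort1 was above Vgf in 22 of 22 libraries. Ntrk2 came next at 27.4 ± 1.79 and Bdnf at 9.57 ± 1.12, each separated from its neighbours in the order with no overlap. Ntf3 (3.07 ± 0.549) was above Ntrk3 (1.65 ± 0.204) in 22 of 22 libraries with overlapping ranges, and Ntrk3 was above Ngfr (0.629 ± 0.520) in 21 of 22. Gdnf was last at 0.0333. The order depends on the length used: with the longest transcript, Ntrk2 was at 60.5 and above Vgf at 59.1, Bdnf at 13.9 and Ntrk3 at 2.53.

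The relation of Bdnf and Vgf to neuronal activity and to dentate gyrus content was examined over 22 libraries without KO library 8, using log2 CPM (prior count 2) and two-sided permutation tests adjusted over 6 relations. Of the 6, only that of Bdnf with Prox1 passed. In the settings below where lists replaced the comparison genes, the activity list stood for both Fos and Arc. The adjustment over 6 then counted the same relation more than once. Levels of the 3 comparison genes varied widely. In WT and in the 10 KO libraries without library 8, Fos spanned 15.3 to 63.6 and 17.7 to 49.95 CPM, Arc 90.4 to 280 and 118 to 249 CPM, and Prox1 103 to 196 and 86.7 to 182 CPM.

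Bdnf rose with Prox1 across libraries. Pearson's r was 0.676 (permutation p = 0.0007, adjusted 0.0042) and Spearman's rho 0.693 (permutation p = 0.00059, adjusted 0.00354) over 22 libraries. Without the 2 libraries farthest from the median of Prox1 (KO library 16 and WT library 3) r was 0.696, and it was 0.635 to 0.725 with each library left out in turn. With 10 dentate granule cell genes other than Prox1 in its place r was 0.642 (permutation test, adjusted p = 0.00804), after removing the linear part of Fos 0.640, and without the choroid plexus rich libraries 0.733. Within WT it was 0.698 (12 libraries, permutation p = 0.0119, adjusted 0.0716), and within KO without library 8 it was 0.554 (10 libraries, permutation p = 0.0939, adjusted 0.317), so neither genotype passed alone. As a description over the 22 libraries, Bdnf also had r of 0.507 with 6 CA3 genes, -0.473 with 8 oligodendrocyte genes and -0.440 with 8 astrocyte genes. With 10 choroid plexus genes its r was -0.332 and its rho -0.597. All values share library, depth and scaling, and 95.5% of tested genes had a lower r with Prox1 than Bdnf did.

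Bdnf did not follow Fos or Arc detectably. With Fos, r was -0.292 (permutation p = 0.188, adjusted 0.385) and rho -0.0999. Without the libraries farthest from the Fos median, WT library 15 and KO library 16, r was 0.153, so the negative sign rested on them. With Arc, r was 0.180 (permutation p = 0.421, adjusted 0.421), and with the mean of 20 activity-regulated genes 0.203. Over all 23 libraries the values were -0.632 with Fos and 0.820 with Arc (permutation test, adjusted p of 0.0101 and 0.0140), with rho of -0.212 and 0.289, and these rest on KO library 8.

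Over the 22 libraries Vgf followed none of the 3 genes past the threshold. Its r was 0.247 with Fos (permutation p = 0.264, adjusted 0.385), 0.223 with Arc (p = 0.321, adjusted 0.385, permutation test) and -0.287 with Prox1 (permutation p = 0.196, adjusted 0.385). The rank correlations were 0.364, 0.291 and -0.390. Without the choroid plexus rich libraries, r with Prox1 was -0.494 and rho -0.551 (permutation test, adjusted p of 0.130 and 0.0682). Over all 23 libraries each r passed, at 0.534 with Fos, -0.475 with Arc and -0.636 with Prox1 (permutation test, adjusted p of 0.0150, 0.0482 and 0.0101), but 0 of the 3 rank correlations did (0.444, 0.129 and -0.466), and these values rest on KO library 8. Against the mean of 20 activity-regulated genes, Vgf had r of 0.408 (permutation test, adjusted p = 0.0891) and rho of 0.492 (permutation test, adjusted p = 0.0340). Against 10 dentate genes it had r of -0.447 (permutation test, adjusted p = 0.0891) and rho of -0.577 (permutation test, adjusted p = 0.0163). Rank and linear measures thus fell on different sides of the threshold for both lists. The sign with dentate genes was opposite to that of Bdnf, and that difference was not tested. As a description over the same 22 libraries, Vgf had r of 0.719 (rho 0.499) with 8 interneuron genes. With 6 CA1 genes it had r of 0.522 (rho 0.438). KO library 6, WT library 17 and KO library 12, lowest in Vgf, had 5.26, 5.22 and 5.42 log2 CPM on the interneuron list. That list spanned 5.22 to 6.09 log2 CPM over the 22 libraries.

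**Figure D4:**
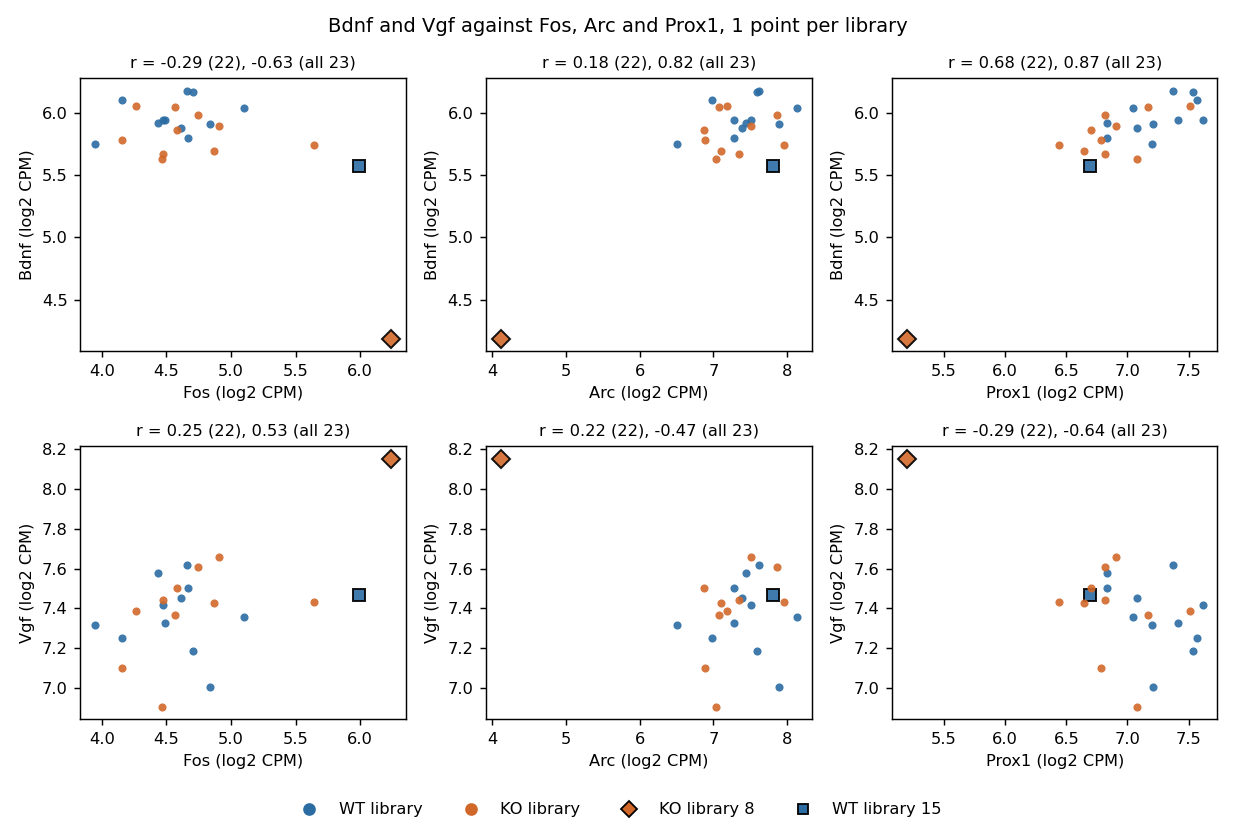
Log2 CPM of Bdnf (top row, y axis) and Vgf (bottom row, y axis) against that of Fos, Arc and Prox1 (x axes), with 1 point per library (WT, n = 12; KO, n = 11). The titles give Pearson's r over 22 libraries without KO library 8 and over all 23. KO library 8 (diamond) lies far from the others in every panel, and the rise of Bdnf with Prox1 is seen among the other 22 points (r = 0.676).

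The other members fell into different patterns with the same genes, given as descriptions over 22 libraries with no p. Sort1 and Ntrk3 resembled Bdnf, with r of 0.716 and 0.717 with Prox1, and 96.8% and 96.9% of tested genes had a lower r. Prox1 was not their only strong relation. Ntrk3 had r of 0.805 with the signalling list, -0.734 with the oligodendrocyte list and -0.629 with the astrocyte list. For Sort1 these were 0.694, -0.529 and -0.644, and its rho with the choroid plexus list was -0.783 (r of -0.524). Sort1 had r of 0.752 with Bdnf and 0.783 with Ntrk3. Ntrk2 had -0.138 with Prox1, and -0.481 with Bdnf, its ligand. Ntf3 was the member with the highest r with Arc (0.493, rho 0.530), above 98.1% of tested genes, and had 0.280 with Prox1. Ngfr had 0.511 with Fos but a rho of 0.0683, and WT library 15 was the highest of the 22 libraries in both.

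Genes whose pattern was most like that of Bdnf over the 22 libraries, among 14939 genes with a mean of at least 1 CPM, were Nrn1 (r = 0.850), Zbtb18 (0.838), Bhlhe22 (0.836), Ubash3b (0.833) and Rbfox1 (0.831). Nrn1 encodes neuritin, a membrane-anchored neuronal protein, Zbtb18 and Bhlhe22 encode transcription factors of excitatory neurons, and Rbfox1 a neuronal splicing factor. The most opposite were T2 (-0.820) and Cfap46 (-0.787), the latter a protein of motile cilia. For Vgf the most alike were Rell2 (0.866), Prkar1b (0.840), a regulatory subunit of protein kinase A, Ina (0.828), a neurofilament protein, Suds3 (0.815) and Ckmt1 (0.808), the mitochondrial creatine kinase. The most opposite to Vgf were Dennd4c (-0.852) and Appl2 (-0.830).

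None of the comparison genes passed the test of KO against WT. Prox1 had a log2 fold change of -0.41 (SE 0.170, p = 0.0242, edgeR adjusted p = 0.781), and -0.31 (SE 0.125, p = 0.0202, edgeR adjusted p = 0.967) without KO library 8. Without WT library 15 as well it was -0.35 (unadjusted p = 0.00804, edgeR adjusted p = 0.731). Limma voom with quality weights gave Prox1 -0.45 (unadjusted p = 0.00104, limma adjusted p = 0.137). Fos was at 0.18 (SE 0.243, edgeR adjusted p = 0.865) and -0.038 (SE 0.209) without KO library 8, and Arc at -0.30 (SE 0.252) and -0.17 (SE 0.167). With Prox1 as a covariate and all 23 libraries, KO library 8 among them, the fitted value of Bdnf was 0.082, that of Sort1 0.088 and that of Ntrk3 0.039, each of the opposite sign to the fit without it. Without KO library 8 the same fit gave 0.014 (SE 0.0618), 0.021 (SE 0.0566) and 0.076 (SE 0.0595). Ngfr moved further from 0, to -0.69 (SE 0.315, unadjusted p = 0.039, edgeR adjusted p = 0.9998) with all libraries and -0.71 (SE 0.321) without KO library 8, and no member passed the test.

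Dentate granule cell genes were at lower fitted values in KO in 10 of 10 cases, with a median log2 fold change of -0.30, and -0.19 without KO library 8. Over all tested genes 49.0% were lower in KO, and 48.4% without KO library 8. As markers of 1 cell type, the 10 dentate genes are not independent of each other. None of them passed the test. Trpc6, a cation channel, had the smallest p without KO library 8 (log2 fold change -0.37, SE 0.0953, p = 0.000638, edgeR adjusted p = 0.963), and C1ql2, a secreted synaptic protein of mossy fibres, had -0.26 (SE 0.118). Npnt, the extracellular matrix protein nephronectin, had -0.31 (SE 0.161) with all libraries. Of 20 activity-regulated genes 17 had lower fitted values (median -0.081), and 16 without KO library 8 (median -0.044), but 11 against 9 higher without WT library 15 as well (median -0.018), again with 0 called. Egr3 (log2 fold change -0.37, SE 0.206, and -0.25, SE 0.0969, without KO library 8) and Egr2 (-0.40, SE 0.216), both zinc finger transcription factors, had the smallest p there.

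In the rest of the pathway 0 genes were called in either fit. In a list of 6 other neurotrophic ligands 2 were tested, among them Cntf, the cytokine ciliary neurotrophic factor, which belongs to neither the neurotrophin nor the GDNF family (log2 fold change 0.081, SE 0.188). Of 11 other receptors 9 were tested, with a median log2 fold change of 0.055, and -0.043 without KO library 8. Ret, the kinase of GDNF receptors, had the largest value among them (0.82, SE 0.523), with 823 counts in KO library 8 and 354 in WT library 15 against 25 to 125 in the others. It was -0.25 (SE 0.327) without KO library 8 and 0.15 (SE 0.228) without both of these libraries. Sorcs1, a receptor of the sortilin family, had 0.34 (SE 0.250), and 0.071 (SE 0.196) without KO library 8. Without KO library 8 the smallest p were those of Gfra4 (0.094, SE 0.0672), a co-receptor of the GDNF family, and Sorl1 (-0.063, SE 0.0706), a sortilin-related receptor.

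Of 16 genes for cleavage and secretion of precursors 15 were tested (median log2 fold change -0.015, and 0.028 without KO library 8). Scg5, a chaperone of the prohormone convertase PC2, had 0.18 (SE 0.0853, p = 0.0415, edgeR adjusted p = 0.781). All 33 signalling genes were tested, 20 at lower and 13 at higher fitted values (median -0.044, and -0.023 without KO library 8). Bex3, a p75-interacting adaptor, had 0.18 (SE 0.0666, p = 0.0115, edgeR adjusted p = 0.781), and 0.13 (SE 0.0472) without KO library 8. Traf6, a ubiquitin ligase recruited by p75, had -0.11 (SE 0.050), and Hras, the small GTPase downstream of Trk receptors, had 0.11 (SE 0.0557) without KO library 8.

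Marker lists of other cells in the dissection held 0 called genes. Without KO library 8 the median log2 fold change was 0.083 for 6 CA1 genes, -0.16 for 6 CA3 genes, -0.0035 for 8 astrocyte, -0.052 for 8 oligodendrocyte, 0.041 for 8 interneuron and -0.027 for 8 vascular genes. It was 0.33 for 6 fibroblast genes and 0.38 for the 6 tested choroid plexus genes. With the choroid plexus rich libraries left out as well, these 2 medians were 0.21 and -0.089. The choroid plexus list lay at 5.37 to 8.13 log2 CPM in the 5 rich libraries and at -0.70 to 1.62 in the other 18. Only 1 of 12 hypothalamic genes and 0 of 6 cholinergic genes passed the filter on low counts. The part of any of these cells in the values of the members was not tested.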

How the data were processed

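Values for 23 libraries come from 1 deposited table of estimated counts, with Ensembl genes as rows, in which 25.8% of non-zero values were not whole. The submitters' processing notes name bcl2fastq, STAR and mm10. The counting program, its use of strand and the annotation release are not given in the sources used here. The kit marks strand, per the labels' protocols. Symbols were matched for 45143 of 45706 rows, positions are GENCODE M21 (GRCm38), and promoters are RefSeq GRCm38.p6.

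Estimated counts were rounded, filtered (filterByExpr), scaled by TMM and tested with edgeR 4.0.16 (quasi-likelihood, robust, R 4.3.3) over all genes, with an adjusted p below 0.05 as the call. It was compared with DESeq2 1.42.0, limma 3.58.1 voom with quality weights, RLE size factors, no filter, a mean of at least 50 counts, Prox1 or the choroid plexus list as covariate, and libraries left out. The fits without WT library 15 and KO library 8, and with Prox1 as covariate without KO library 8, were added after seeing the data. Correlations used 100000 permutations (numpy 2.4.6, Python 3.11.15). Fits were tested on simulated data.

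Named genes are the members, Fos, Arc and Prox1, the 2 genes of smallest p in each list (the cell marker lists other than dentate gyrus are given by their medians), and the 5 most and 2 least alike to Bdnf and Vgf. Ntf5, Chat, Lhx8, Pmch and Avp were chosen after their values were seen. Members and lists were chosen with earlier results of these data known. Some genes that this rule names are not reported here.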

Additional observations from a re-analysis of the deposited data

How the results depend on the processing

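The count of called members was 0 in each of 11 alternatives and 23 fits without 1 library, and 0 genes of the lists were called in any of them. Over all genes 2 were called, 2 to 3 without 1 library, 5 with voom quality weights and 3 with DESeq2. With a mean of at least 50 counts 1 was called, and 1 without the choroid plexus rich libraries. With Prox1 as a covariate the log2 fold changes changed sign to 0.082 for Bdnf, 0.16 for Ntf3, -0.034 for Ntrk2, 0.039 for Ntrk3, 0.088 for Sort1, -0.073 for Vgf and -0.35 for Fos, while Ngfr kept its sign at -0.69 (-0.20 without the covariate). With this covariate and without KO library 8, Bdnf was at 0.014, Ntf3 at 0.020, Ntrk3 at 0.076, Sort1 at 0.021 and Vgf at -0.040. Ntrk2 was then at 0.0055, with the sign that it had without the covariate. Without WT library 15 and KO library 8 Ntf3 was at 0.0023 and Ngfr at 0.046. The cause of these changes was not tested. Leaving out 1 library gave -0.42 to 0.26 for Ngfr and -0.038 to 0.37 for Fos, with positive Ngfr only without WT library 15 and negative Fos only without KO library 8. The other members kept their sign, within -0.23 to -0.094 for Bdnf, -0.23 to -0.042 for Ntf3, 0.019 to 0.10 for Ntrk2, -0.12 to -0.045 for Ntrk3, -0.23 to -0.083 for Sort1 and 0.022 to 0.14 for Vgf. The fits without the choroid plexus rich libraries went beyond some of these ranges. There Ntf3 was at -0.27, Ntrk3 at -0.16, Ngfr at -0.23 and Vgf at 0.16. With KO library 8 left out as well, they were at -0.089, -0.13, -0.58 and 0.058. Ngfr gave no value with a mean of at least 50 counts.

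Over all 23 libraries r was -0.632 for Bdnf with Fos, 0.820 with Arc, 0.534 for Vgf with Fos, -0.475 with Arc and -0.636 with Prox1, each past the threshold. Bdnf with Fos was 0.153 without the 2 extreme libraries, 0.203 with the activity list and 0.0759 after removing Prox1. Vgf with Arc was -0.0368 in WT alone and 0.528 in KO alone without library 8. Vgf with Fos was 0.105 and 0.425 in these settings, and none of these values passed the threshold. Bdnf with Prox1 was 0.698 in WT and 0.554 in KO, and with these fewer libraries neither passed the threshold. Without 1 library, r was -0.385 to -0.0401 (Bdnf with Fos), 0.109 to 0.314 (Bdnf with Arc), 0.635 to 0.725 (Bdnf with Prox1), 0.183 to 0.314 (Vgf with Fos), 0.146 to 0.400 (Vgf with Arc) and -0.368 to -0.234 (Vgf with Prox1). With the longest transcript, levels were 13.9 for Bdnf, 60.5 for Ntrk2 and 2.53 for Ntrk3 CPM per kilobase. Depth limits Gdnf, with 67 counts over all libraries. No paired analysis was possible because WT and KO libraries share no replicate number.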

Other observations

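Ntf5, which encodes neurotrophin 4, a further TrkB ligand, did not pass the filter on low counts and was unevenly spread over the libraries. It had 34 counts in WT library 17, 24 in KO library 12 and 15 in KO library 6, and 0 to 7 counts in the other 20. These 3 libraries also held the highest choroid plexus lists, at 8.13, 7.74 and 6.76 log2 CPM, while the others reached 5.45. Whether choroid plexus RNA carries these counts was not tested.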
